A study of Macaca mulatta with 15 samples.

Results

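CD8 memory T cells from the blood of 2 rhesus macaques were profiled by RNA sequencing before and after treatment with 2-hydroxypropyl-beta-cyclodextrin. These are 4 of the 15 libraries in the series, chosen by their label as CD8 memory cells. The animal RhDBCb gave 1 library before and 1 after treatment, and so did the animal RhM22, which makes 2 pairs. The before samples (labelled Pre) had no treatment. The after samples (Post) came from animals given a 15% solution (w/w) of Kleptose, a commercial preparation of the compound, under the skin at 1 ml/kg per day for up to 120 days. The series title calls the macaques healthy, and their ages are not given in the labels. No untreated animal was sampled in parallel, so treatment and elapsed time cannot be told apart. The labels give no method for sorting the cells into subsets. The question examined here was which genes and gene groups lay on the same side of the before level in both animals, and how far the pairs differed.

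2-Hydroxypropyl-beta-cyclodextrin is a ring of sugar units that holds cholesterol in its centre and can draw it out of membranes. CD8 memory T cells are antigen-experienced lymphocytes that persist in a resting state, keep transcripts of granule proteins such as granzymes and perforin ready for killing, and divide when they meet their antigen again. In resting blood cells, transcripts of DNA replication and mitosis are therefore scarce, and their level follows the share of dividing cells. Cells sense a loss of membrane cholesterol through SREBP transcription factors, which switch on cholesterol synthesis and uptake genes.

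The 4 libraries held 55024228 to 64823153 expected counts, and no 2 libraries of the series were identical. Levels are given below as CPM, counts scaled to a common library size, and changes as the log2 of the after level over the before level with 0.5 CPM added to each. CD8A and CD8B, the chains of the CD8 co-receptor, matched the label, with 713 and 195 CPM before and 772 and 163 after in RhDBCb, and 861 and 166 before and 670 and 224 after in RhM22. CD4 lay between 0.21 and 1.46 CPM. Markers of naive cells summed to 4166 to 7284 CPM in the CD8 memory libraries and to 10055 to 14088 CPM in the CD8 naive libraries. CCR7, a lymph node homing receptor of naive and central memory cells, was still abundant in the memory libraries, at 2937 and 3981 CPM before and after in RhDBCb and 5010 and 5607 CPM in RhM22.

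The before library of RhDBCb stood apart. Its log2 levels correlated with those of the other 3 CD8 memory libraries at a mean Pearson r of 0.969 across genes, the lowest of the 4. The 2 before libraries correlated at 0.959 and the 2 after libraries at 0.985. Among 8573 genes with a mean of at least 5 CPM, 2032 differed by 2-fold or more between the animals before treatment and 271 after it. Of these, 161 differed in the same direction at both times. The before library of RhDBCb had the highest summed level of all 15 libraries for 8 of the 27 gene lists described below, cell cycle and oxidative phosphorylation genes among them. The before library of RhM22 had the highest sum for 7, including interferon-stimulated, NF-kB and heat shock genes. Some leads were narrow. Against the next library, RhM22 had 5774 and 5758 CPM for interferon-stimulated genes and 9183 and 9134 CPM for NF-kB genes. For heat shock genes it had 21441 and 17702 CPM. RhDBCb had 17318 and 17266 CPM for homing receptors, but 2682 and 1564 CPM for G1 and S phase genes. Results that rest on the before library of RhDBCb are therefore given beside the RhM22 pair, which does not contain it.

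No gene passed the test of a change in CD8 memory cells. In edgeR's quasi-likelihood test with Benjamini-Hochberg adjustment, 0 of 14814 genes were called higher (0%) and 0 lower (0%), and the smallest adjusted p was 1. At an unadjusted p under 0.05 there were 216 genes (1.46%), 103 of them higher (0.695%) and 113 lower (0.763%). The share of 1.46% is below the share of 0.05 that this threshold passes on average when no gene changes. DESeq2 also called 0 genes, with 301 at an unadjusted p under 0.05 and a smallest adjusted p of 0.832. Without the before library of RhDBCb edgeR called 0 and counted 100 genes at that unadjusted level. Every p given for a gene below is unadjusted and from edgeR, and the adjusted p was 1 in each case. Fits below without a CD8 memory library keep that animal's other CD8 memory library. The animal is then adjusted for only by a term shared by all subsets. Such a fitted value is therefore not the change of the remaining pair, which the pair changes or levels give. "Higher" and "lower" below describe the measured levels. In bulk libraries, fewer cells of a type and less RNA per cell cannot be told apart.

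The pairs mostly moved in opposite directions. Of the 8573 genes, 2994 (34.9%) moved the same way in both animals. Across these genes the pair changes had a Pearson r of -0.43 and a Spearman rho of -0.43, a description over genes that share the same 4 libraries. The CD4 naive pairs shared the direction in 49.7% of 8477 genes with r = -0.02, and the CD4 memory pairs in 48.4% of 8489 genes with r = -0.05. The RhDBCb pair was also the wider one. Its changes had an SD of 0.66 and passed 2-fold in 970 genes, against 0.42 and 146 genes in the RhM22 pair. RhDBCb had the wider pair in the CD4 subsets too. The SDs were 0.73 and 0.40 in CD4 naive and 0.56 and 0.27 in CD4 memory cells of RhDBCb and RhM22. Genes past 2-fold numbered 1240 and 186 in CD4 naive and 637 and 33 in CD4 memory cells. In the CD8 memory pair of RhM22, 57 genes were at least 2-fold higher (0.665%) and 89 at least 2-fold lower (1.04%). Of the 517 genes (6.03%) at least 2-fold lower after treatment in RhDBCb, 437 were higher in RhM22. Of the 453 genes (5.28%) at least 2-fold higher in RhDBCb, 347 were lower in RhM22.

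**Figure D1:**
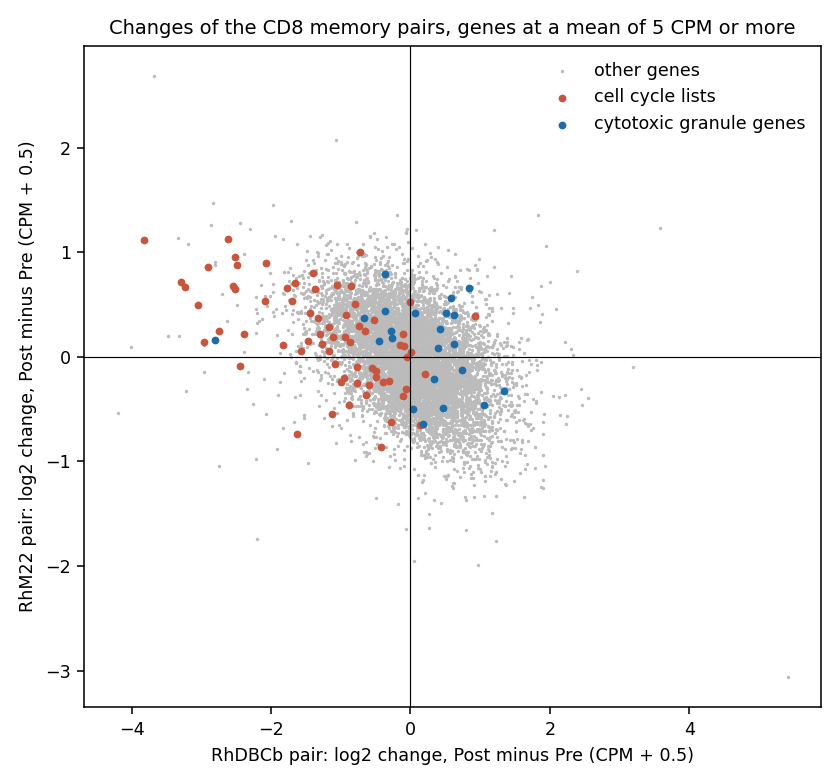
Change of each gene after treatment in the RhDBCb pair (x axis) and the RhM22 pair (y axis), log2 of CPM plus 0.5, for the 8573 genes with a mean of at least 5 CPM; coloured points mark members of the cell cycle and cytotoxic granule lists. The cloud slopes downwards (r = -0.43), cell cycle genes extend to the left, and cytotoxic granule genes scatter around both axes.

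Only a few genes were 2-fold apart in the same direction in both animals. There were 4 higher (0.0467% of 8573) and 3 lower (0.035%), against 58 that were 2-fold apart in opposite directions, 33 higher in RhDBCb (0.385%) and 25 lower (0.292%). The 4 were SLC22A17, CCR9, HBE1 and ENSMMUG00000008111, a gene without a symbol that was named after its values were seen. The 3 were CYFIP1, CERKL and IFI30. Most of these lay at low levels. The named genes in the next paragraphs are the 12 per direction whose smaller pair change was largest. They were picked for changes in the same direction, so a lack of overlap between their before and after levels is no added support. Here and below it only describes the levels. The share of all genes without such overlap was not counted.

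Among genes higher after treatment in both animals, SPECC1L had the closest agreement at a substantial level. SPECC1L encodes a cytoskeletal linker protein. It measured 73.5 CPM before and 146 after in RhDBCb, and 87.0 before and 166 after in RhM22. Both after libraries lay above both before libraries, and the pair changes were 0.99 and 0.93. The fitted log2 fold change was 0.96 (SE 0.24, unadjusted p = 0.0016 in edgeR, n = 2 pairs), and it was 0.93 without the before library of RhDBCb. SPECC1L was higher after treatment in the CD4 pairs too, by 1.20 and 0.39 in naive and 0.80 and 0.37 in memory cells of RhDBCb and RhM22, and the CD8 memory change exceeded the mean CD4 change by 0.27 (SE 0.29, unadjusted p = 0.37 in edgeR), which did not pass the test.

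SLC22A17, a receptor for the iron-binding protein lipocalin 2, was at 3.02 CPM before and 7.61 after in RhDBCb, and at 3.26 and 8.20 in RhM22. The groups did not overlap, and the pair changes of 1.20 and 1.21 were nearly equal. Its fitted log2 fold change was 1.33 (SE 0.35, unadjusted p = 0.0028 in edgeR), and its difference from the CD4 change was 1.25 (SE 0.43, unadjusted p = 0.013). ZNF696, a zinc finger protein gene, went from 6.26 to 12.4 CPM and from 8.36 to 15.8 CPM, with a fitted change of 0.95 (SE 0.35, unadjusted p = 0.018 in edgeR). Its CD4 pair changes of 1.33, 0.19, 1.05 and 0.55 were also above 0.

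CCR9, the receptor that directs T cells to the small intestine, was at 0.56 CPM before and 3.56 after in RhDBCb, and at 5.37 and 11.7 in RhM22. The after level of RhDBCb was below the before level of RhM22, so the groups overlapped. The fitted change was 1.46 (SE 0.74, unadjusted p = 0.072 in edgeR) and 0.59 without the before library of RhDBCb. GPR25, an orphan G protein-coupled receptor gene, was at 3.02 and 13.7 CPM in RhDBCb and 3.14 and 5.50 CPM in RhM22. CA8, IFT140, KCNH3, HEATR5A and TRBV5-1 completed the group, each below 13 CPM in all 4 libraries, with pair changes of 0.75 to 1.45. TRBV5-1 is a segment of the T cell receptor beta chain whose level can follow single clones.

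PPBP and HBE1 belong to other blood cells. PPBP, a platelet chemokine, was at 1.36 CPM before and 9.19 after in RhDBCb and at 15.0 and 26.9 in RhM22 (fitted change 1.88, SE 0.79, unadjusted p = 0.036 in edgeR). Of 16 platelet markers measured, 12 were higher in both animals and none was lower in both, beside 19.3% and 16.9% of all genes tested. GP1BA, a subunit of a platelet adhesion receptor, was at 0 in all 4 libraries. The summed platelet level was 7.33 CPM before and 20.5 after in RhDBCb, and 33.5 before and 56.0 after in RhM22. In CD4 naive cells it was 13.5 and 47.6 CPM in RhDBCb and 84.7 and 144 CPM in RhM22. In CD4 memory cells it was 11.5 and 30.4 CPM in RhDBCb and 52.6 and 46.2 CPM in RhM22. In the CD8 naive cells of RhM22 it was 75.4 and 89.3 CPM. HBE1, an embryonic globin, was at 0.58 and 12.3 CPM in RhDBCb and 4.59 and 11.5 CPM in RhM22, while the summed erythroid markers lay between 3.16 and 9.25 CPM. The part of platelets in the other changes was not tested.

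Among the 12 selected genes lower after treatment in both animals, CCDC50 and AHR had the highest mean CPM. CCDC50, which encodes an adaptor that binds ubiquitin chains, was at 154 CPM before and 73.3 after in RhDBCb and at 94.0 and 52.9 in RhM22. Both after libraries lay below both before libraries. The fitted log2 fold change was -0.95 (SE 0.28, unadjusted p = 0.0056 in edgeR) and -0.81 without the before library of RhDBCb. AHR, the aryl hydrocarbon receptor, a ligand-activated transcription factor, was at 104 and 59.8 CPM in RhDBCb and 75.4 and 37.8 CPM in RhM22, again without overlap. Its fitted change was -0.88 (SE 0.43, unadjusted p = 0.064 in edgeR), and it was -0.46 without the before library of RhDBCb and -0.47 without the after library of RhM22. AHR differed from the CD4 change by -1.17 (SE 0.52, unadjusted p = 0.046).

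LYN, a Src-family kinase best known from B and myeloid cells, was at 46.1 CPM before and 11.8 after in RhDBCb and at 27.6 and 14.8 in RhM22 (fitted change -1.49, SE 0.61, unadjusted p = 0.031 in edgeR), and the change was -0.91 without the before library of RhDBCb. IFI30, a lysosomal thiol reductase of antigen processing, was at 12.7 and 4.29 CPM and at 10.3 and 4.85 CPM (-1.36, SE 0.46, unadjusted p = 0.012). Both genes were without overlap between before and after. Markers of B cells summed to 33.6, 38.3, 50.5 and 53.9 CPM in the before and after libraries of RhDBCb and then of RhM22, and markers of monocytes and dendritic cells to 9.67, 14.1, 53.9 and 30.3 CPM. The B cell sum was higher after treatment in both animals, and the monocyte and dendritic cell sum was higher in RhDBCb and lower in RhM22. The part of these cells in the levels of LYN and IFI30 was not tested.

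CYFIP1, a subunit of the WAVE actin regulatory complex, showed the largest smaller change of this group. It was at 14.9 CPM before and 2.84 after in RhDBCb, and at 2.40 and 0.37 in RhM22. The animals differed more than the times did, and the fitted change of -2.44 (SE 1.15, unadjusted p = 0.055 in edgeR) was -0.98 without the before library of RhDBCb. CYFIP1 was lower in the CD4 pairs too, by -0.95 and -0.97 in naive and -0.32 and -1.06 in memory cells of RhDBCb and RhM22. In the CD8 naive pair of RhM22 its change was 0.22. CERKL and MOCOS likewise were above 17 CPM only in the before library of RhDBCb and at or below 1.22 CPM in both libraries of RhM22. ALYREF, KCTD9 and ADAM19 had pair changes from -0.87 to -0.74. CCNE1, cyclin E1, is described with the cell cycle genes.

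Cytotoxic granule genes had higher medians after treatment in both animals, with no member past the test. The median change of the 24 measured members of 25 was 0.36 in RhDBCb and 0.21 in RhM22, beside 0.00 in each pair over all genes tested. Of the 24, 9 were higher in both animals, 0 were lower in both and 15 moved in opposite directions, while 19.3% of all genes tested were higher in both and 16.9% lower in both. None of the 24 had an unadjusted p under 0.05. The medians in the CD4 pairs ran from -0.17 to 0.13.

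GZMB, the protease granzyme B, was at 172 CPM before and 308 after in RhDBCb, and at 610 and 961 in RhM22. The animals differed more than the times did, so the before and after levels overlapped. The pair changes were 0.84 and 0.66, with a fitted change of 0.72 (SE 0.41, unadjusted p = 0.11 in edgeR) that was 0.25 without the before library of RhDBCb. In the CD4 pairs GZMB was lower after treatment, by -1.26 and -1.43 in naive and -0.11 and -0.27 in memory cells. The difference between the CD8 memory change and the CD4 change was 1.51 (SE 0.51, unadjusted p = 0.012 and adjusted p = 1 in edgeR). GZMB resembles its neighbour GZMH closely in sequence, and how shared reads were divided between them is uncertain.

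GZMM, the protease granzyme M, had the most even change among granule genes. It was at 356 CPM before and 535 after in RhDBCb and at 352 and 520 in RhM22, with no overlap (fitted change 0.58, SE 0.35, unadjusted p = 0.13 in edgeR). NKG7, a granule membrane protein, was at 410 and 635 CPM in RhDBCb and 655 and 865 in RhM22, and CST7, a protease inhibitor of granules, at 63.8 and 91.4 and at 85.1 and 114. Their fitted changes were 0.52 (SE 0.49) and 0.46 (SE 0.40). That of CST7 was 0.16 without the before library of RhDBCb and 0.15 without the after library of RhM22. GZMK, granzyme K, was at 312 and 483 CPM in RhDBCb but only 298 and 324 in RhM22. GNLY, the membrane-lytic protein granulysin, was nearly level in RhDBCb at 354 and 369 CPM and went from 423 to 565 CPM in RhM22.

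PRF1, the pore-forming protein perforin, did not follow. It was at 269 CPM before and 451 after in RhDBCb, and at 1249 and 1146 in RhM22. SERPINB9, an inhibitor that protects the cell from granzyme B, likewise was higher in RhDBCb (435 and 903 CPM) and lower in RhM22 (1222 and 889 CPM). The release machinery, RAB27A, UNC13D, STX11 and STXBP2, moved in opposite directions in the animals in each case. Among granzymes A, B, K and M, perforin, granulysin, NKG7 and CST7, compared as FPKM, which divides by gene length, perforin was the highest in RhM22 (249 before, 229 after) and NKG7 in RhDBCb (75.4 before, 120 after), while GZMB lay at 5.16 and 9.51 in RhDBCb and 18.7 and 29.5 in RhM22. The list summed to 5102 CPM before and 6842 after in RhDBCb, and to 8843 and 8824 CPM in RhM22, so the higher median in RhM22 was not a higher sum.

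**Figure D2:**
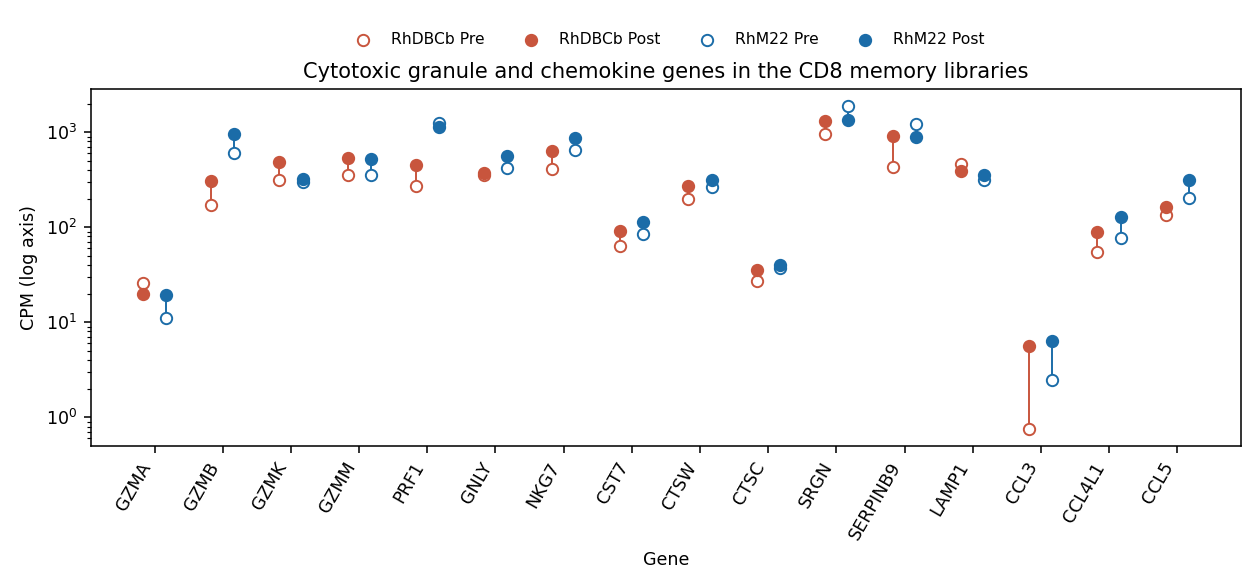
Level in CPM (log axis) of 13 cytotoxic granule genes and 3 chemokine genes in the 4 CD8 memory libraries; open circles are before and filled circles after treatment. GZMB, GZMM, NKG7, CST7 and the chemokines lie higher after treatment in both animals, and PRF1, SRGN, SERPINB9, GZMA and LAMP1 move in opposite directions.

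Receptors shared with natural killer cells had medians of 0.27 and 0.17, with 10 of 20 measured members higher in both animals and 1 lower in both. KLRD1, the CD94 subunit of NKG2 receptors, was at 31.5 and 65.5 CPM in RhDBCb and 72.9 and 83.2 CPM in RhM22. CD244, a SLAM-family receptor, was at 8.21 and 13.0 CPM and at 5.66 and 9.31 CPM. CD226, an activating receptor for nectin-family ligands, was lower in RhDBCb, at 28.2 and 10.9 CPM, and level in RhM22, at 11.6 and 11.5 CPM (unadjusted p = 0.047 in edgeR).

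Markers of natural killer cells summed to 961 CPM before and 1381 after in RhDBCb, and to 1760 and 1982 CPM in RhM22. Of the 10 members, 5 were higher in both animals and 0 lower in both. Most of this sum was IL2RB, which T cells also express. The granule gene sum, in contrast, was higher after treatment only in RhDBCb. NCAM1, the defining CD56 antigen, lay between 0.07 and 1.80 CPM. Markers of gamma-delta and MAIT cells summed to 318 and 570 CPM in RhDBCb and 487 and 503 CPM in RhM22, with 4 of 8 higher in both. The part of either cell type in the granule gene levels was not tested.

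Effector cytokines and chemokines had medians of 0.22 and 0.14, with 10 of 24 members higher in both animals and 3 lower in both. CCL3, a chemokine that draws in other leukocytes, was at 0.75 CPM before and 5.68 after in RhDBCb and at 2.49 and 6.38 in RhM22 (unadjusted p = 0.025 in edgeR, fitted change 1.39 without the before library of RhDBCb). The before and after levels did not overlap. CCL4L1, annotated as a copy of CCL4, was at 55.4 and 88.4 CPM and at 77.6 and 129 CPM, and CCL5 at 135 and 163 CPM and at 204 and 316 CPM. Reads of near-identical chemokine copies could be divided between them. CSF1, the macrophage growth factor, was at 162 and 247 CPM and at 318 and 389 CPM. IFNG, interferon-gamma, was scarce and nearly level, at 3.75 and 3.36 CPM and at 5.18 and 5.06 CPM.

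Cell cycle genes differed most between the animals. The 48 G1 and S phase genes had a median change of -1.35 in RhDBCb and 0.20 in RhM22, with 0 and 32 members above 0, beside 50.1% and 48% of all genes tested. In RhDBCb 29 of the 48 were at least 2-fold lower after treatment, beside 5.85% of all genes tested. The 67 measured G2 and M phase genes had medians of -1.16 and 0.22, with 6 and 44 members above 0 and 38 at least 2-fold lower in RhDBCb. No cell cycle gene passed the adjusted test. In the CD4 pairs the list medians ran from -0.18 to 0.25.

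The difference lay in 1 library. Summed G1 and S phase genes reached 2682 CPM in the before library of RhDBCb and 1009 to 1564 CPM in the other 14 libraries of the series. Summed G2 and M phase genes reached 2598 CPM there and 846 to 1568 CPM in the other 14. After treatment the animals lay close together, with G1 and S sums of 1381 CPM in RhDBCb and 1260 CPM in RhM22 and G2 and M sums of 1271 and 1332 CPM. In RhM22 the G1 and S sum before treatment was 1298 CPM, so its sum was slightly lower after treatment although the median of its members was above 0.

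**Figure D3:**
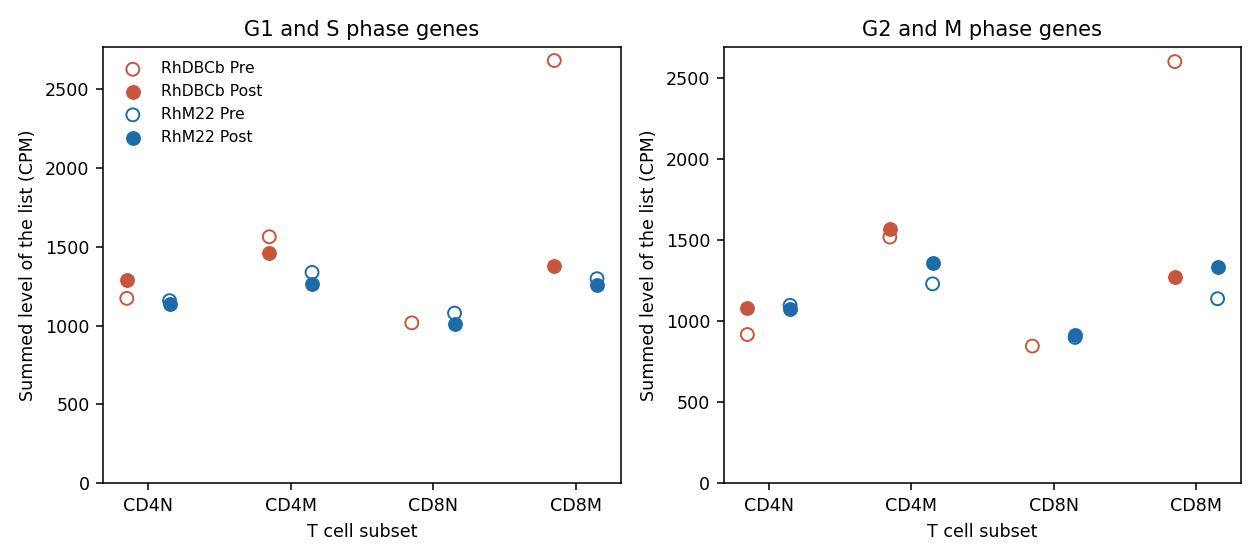
Summed level in CPM of the G1 and S phase list (left) and the G2 and M phase list (right) in each of the 15 libraries, by T cell subset; open circles are before and filled circles after treatment, coloured by animal. The before library of CD8 memory cells (CD8M) of RhDBCb lies above all others in both panels, at 2682 and 2598 CPM.

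MKI67, the Ki-67 antigen of dividing cells, was at 112 CPM before and 11.0 after in RhDBCb, and at 5.94 and 10.1 in RhM22. The fitted change was -1.23 (SE 0.93, unadjusted p = 0.21 in edgeR) and 0.11 without the before library of RhDBCb. MCM2, a subunit of the replicative helicase, was at 137 and 25.7 CPM in RhDBCb and 15.9 and 18.6 CPM in RhM22 (-1.54, SE 0.67, unadjusted p = 0.04), and 0.28 without that library. TYMS, thymidylate synthase, was at 28.1 and 4.58 CPM and at 2.06 and 4.21 CPM. PLK1, a mitotic kinase, was at 17.3 and 0.76 CPM and at 1.10 and 2.98 CPM. These genes were highest in the before library of RhDBCb, and each was lower after treatment in RhDBCb and higher in RhM22.

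Some cell cycle genes were lower in both animals, 16 of the 48 G1 and S genes and 19 of the 67 G2 and M genes, and 0 and 2 were higher in both. Since all 48 G1 and S genes were lower in RhDBCb, these 16 are simply the members that were lower in RhM22. CCNE1, the cyclin that drives entry into S phase, was the clearest, at 14.6 CPM before and 4.39 after in RhDBCb and at 6.44 and 3.65 in RhM22. The groups did not overlap, and the fitted change of -1.26 (SE 0.38, unadjusted p = 0.0066 in edgeR) was -1.08 without the before library of RhDBCb. RFC3, a subunit of the clamp loader of replication, was at 40.6 and 21.8 CPM and at 27.5 and 19.8 CPM (-0.71, SE 0.28, unadjusted p = 0.026), and -0.39 without that library. PCNA, the sliding clamp itself, was at 224 and 208 CPM and at 297 and 229 CPM. CENPF, a kinetochore protein, went the other way, from 41.2 to 78.3 CPM and from 40.2 to 52.8 CPM (0.67, SE 0.30, unadjusted p = 0.043). CCNB1, cyclin B1, stayed between 20.0 and 20.8 CPM in all 4 libraries, and genes of quiescence and cell cycle brakes had medians of 0.13 and -0.17.

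Several other groups followed the cell cycle genes. The 58 nuclear genes of oxidative phosphorylation had medians of -0.76 and 0.23, with 0 higher and 11 lower in both animals. Their sum was 10731 CPM in the before library of RhDBCb and 6220 to 9894 CPM in the other 14. The 20 S100, annexin and galectin genes, which mark memory and activated T cells, had medians of -0.80 and 0.24. S100A4 was at 2214 and 396 CPM in RhDBCb and 327 and 459 CPM in RhM22 (-1.23, SE 0.55, unadjusted p = 0.044 in edgeR), and 0.18 without the before library of RhDBCb. LGALS3, galectin-3, was at 318 and 106 CPM and at 109 and 99.1 CPM. The integrin chain ITGB1 was at 3866 and 1098 CPM and at 1234 and 1106 CPM (-1.16, SE 0.45, unadjusted p = 0.026), and -0.15 without that library. CCR2, a receptor for inflammatory chemokines, was at 202 and 54.7 CPM and at 33.6 and 28.3 CPM.

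Of 22 measured glycolysis genes, 9 were lower in both animals and 2 higher in both, with medians of -0.34 and -0.10 and no member at an unadjusted p under 0.05. PGAM1, phosphoglycerate mutase, was at 467 and 353 CPM in RhDBCb and 388 and 293 CPM in RhM22. PFKP, a phosphofructokinase, had even pair changes of -0.34 and -0.33. ENO1, enolase, was at 3462 and 1680 CPM in RhDBCb and at 1356 and 1492 CPM in RhM22. The lactate and pyruvate exporter SLC16A3 was higher in both, at 340 and 598 CPM and at 636 and 787 CPM. The 13 genes encoded by mitochondrial DNA had medians of 0.15 and -0.61, and COX1 was lower in both, at 1346 and 929 CPM and at 1568 and 929 CPM.

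Of 18 measured activation and co-stimulation genes, 6 were higher in both animals, 4 lower in both and 8 opposite, with medians of 0.07 and 0.08. PDCD1, the checkpoint receptor PD-1, was at 222 CPM before and 58.5 after in RhDBCb and at 73.3 and 85.0 in RhM22 (-0.98, SE 0.40, unadjusted p = 0.033 in edgeR), and -0.01 without the before library of RhDBCb. The 14 inhibitory receptors had medians of -0.35 and 0.21, with 9 moving in opposite directions. IL2RA, the CD25 subunit of the interleukin-2 receptor, was lower in both, at 60.8 and 18.8 CPM and at 26.8 and 17.2 CPM. CISH, a feedback inhibitor of cytokine signalling, was higher in RhDBCb, at 10.9 and 52.9 CPM, and nearly level in RhM22, at 125 and 138 CPM. Its CD4 pair changes were 3.77 and 0.78 in naive and 2.23 and 0.67 in memory cells of RhDBCb and RhM22. CD38, an ectoenzyme of activated cells, was at 45.8 and 41.7 CPM and at 81.8 and 52.2 CPM (-0.39, SE 0.21, unadjusted p = 0.088), with a difference from the CD4 change of -0.68 (SE 0.26, unadjusted p = 0.021).

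Transcription factors of memory fate were mixed. BCL6, a repressor linked to long-lived memory, was at 16.3 and 6.59 CPM in RhDBCb and 8.23 and 5.30 CPM in RhM22, without overlap (-0.96, SE 0.35, unadjusted p = 0.017 in edgeR). It was lower in the 4 CD4 pairs as well, by -1.67, -1.01, -1.23 and -0.80. TCF7, which encodes TCF1 of naive and stem-like memory cells, was at 49.4 and 64.4 CPM and at 54.0 and 74.9 CPM (0.43, SE 0.23, unadjusted p = 0.084). ZBTB16, a factor of innate-like T cells, was at 61.5 and 98.6 CPM and at 91.1 and 141 CPM. The effector factors EOMES (62.8 and 189 CPM, then 153 and 134 CPM) and TBX21 (pair changes of -1.28 and 0.13) moved in opposite directions in the animals. The list of effector and residency factors had medians of 0.07 and -0.04, and that of naive and central memory genes -0.04 and -0.04.

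Immediate early genes, which respond within minutes to receptor signals or handling, had medians of 0.07 and 0.14. JUNB, an AP-1 subunit, was at 181 and 236 CPM in RhDBCb and 231 and 364 CPM in RhM22 (0.53, SE 0.21, unadjusted p = 0.025 in edgeR). NR4A1, a nuclear receptor induced by T cell receptor signals, was at 127 and 181 CPM and at 140 and 222 CPM (0.59, SE 0.30, unadjusted p = 0.067), without overlap. JUN and FOS did not follow, with 350 and 121 CPM, then 104 and 154 CPM for JUN, and 5149 and 3664 CPM, then 3114 and 4033 CPM for FOS. Of the 37 members 10 were higher in both animals and 3 lower in both.

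Interferon-stimulated genes moved in opposite directions. The 52 measured members had medians of 0.32 in RhDBCb and -0.32 in RhM22, with 40 and 11 above 0, and 43 moved in opposite directions. MX1, an antiviral GTPase, was at 9.40 and 42.8 CPM in RhDBCb and 52.9 and 40.4 CPM in RhM22. Its CD4 pair changes were 3.03 and -0.65 in naive and 1.73 and -0.25 in memory cells of RhDBCb and RhM22. IFIT2, an antiviral RNA-binding protein, was lower in both, at 64.0 and 45.3 CPM and at 169 and 66.1 CPM (-1.03, SE 0.37, unadjusted p = 0.016 in edgeR). Its fitted change was -1.57 without the before library of RhDBCb and -0.25 without the before library of RhM22. IFIT2 was lower in the 4 CD4 pairs by -1.69, -1.15, -1.35 and -1.55. The before library of RhM22 had the highest interferon-stimulated sum of the 15 libraries, at 5774 CPM. It was 3076 CPM in the before library of RhDBCb, and 3726 and 3957 CPM after treatment in RhDBCb and RhM22. The lead was not particular to CD8 memory cells. In RhM22 the sums before and after were 5079 and 3452 CPM in CD4 naive and 5758 and 4388 CPM in CD4 memory cells. In its CD8 naive cells they were 4574 and 3187 CPM.

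Genes of interferon-gamma response and antigen presentation had medians of -0.10 and -0.16, with 8 of 22 lower in both and 2 higher in both. WARS1, a tRNA synthetase induced by interferon-gamma, was at 168 and 90.3 CPM and at 112 and 88.8 CPM (unadjusted p = 0.025 in edgeR), and APOL2, of the apolipoprotein L family, had pair changes of -0.63 and -0.95 (-0.78, SE 0.37, unadjusted p = 0.056). TNF and NF-kB genes had medians of 0.20 and -0.31. BIRC3, an NF-kB target that restrains cell death, was lower in both, at 164 and 133 CPM and at 170 and 81.8 CPM, and RELB moved in opposite directions, at 28.7 and 76.0 CPM and at 114 and 74.6 CPM. Heat shock and unfolded protein genes had medians of 0.04 and -0.17.

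Genes that handle sterols, the cargo of the compound, showed no shared direction. The 25 measured genes of cholesterol synthesis and uptake had medians of 0.11 and -0.04, with 6 higher and 4 lower in both animals. HMGCS1, an early enzyme of synthesis, was at 39.3 and 55.8 CPM in RhDBCb and at 79.9 and 49.5 CPM in RhM22. SREBF2, the transcription factor of the pathway, and its escort SCAP were slightly higher in both, at 94.5 and 123 CPM and at 107 and 119 CPM for SREBF2, and at 95.3 and 120 CPM and at 103 and 123 CPM for SCAP. SREBF1, which favours fatty acid synthesis, was at 22.8 and 76.6 CPM in RhDBCb and 114 and 109 CPM in RhM22. Its CD4 pair changes were 2.44 and -0.46 in naive and 1.64 and -0.51 in memory cells of RhDBCb and RhM22. ABCA1, the sterol exporter, was at 5.45 and 11.8 CPM and at 15.0 and 8.09 CPM. Medians were 0.47 and -0.20 for fatty acid synthesis genes, -0.09 and 0.19 for sterol efflux genes and -0.19 and 0.18 for lysosome and sterol trafficking genes.

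**Figure D4:**
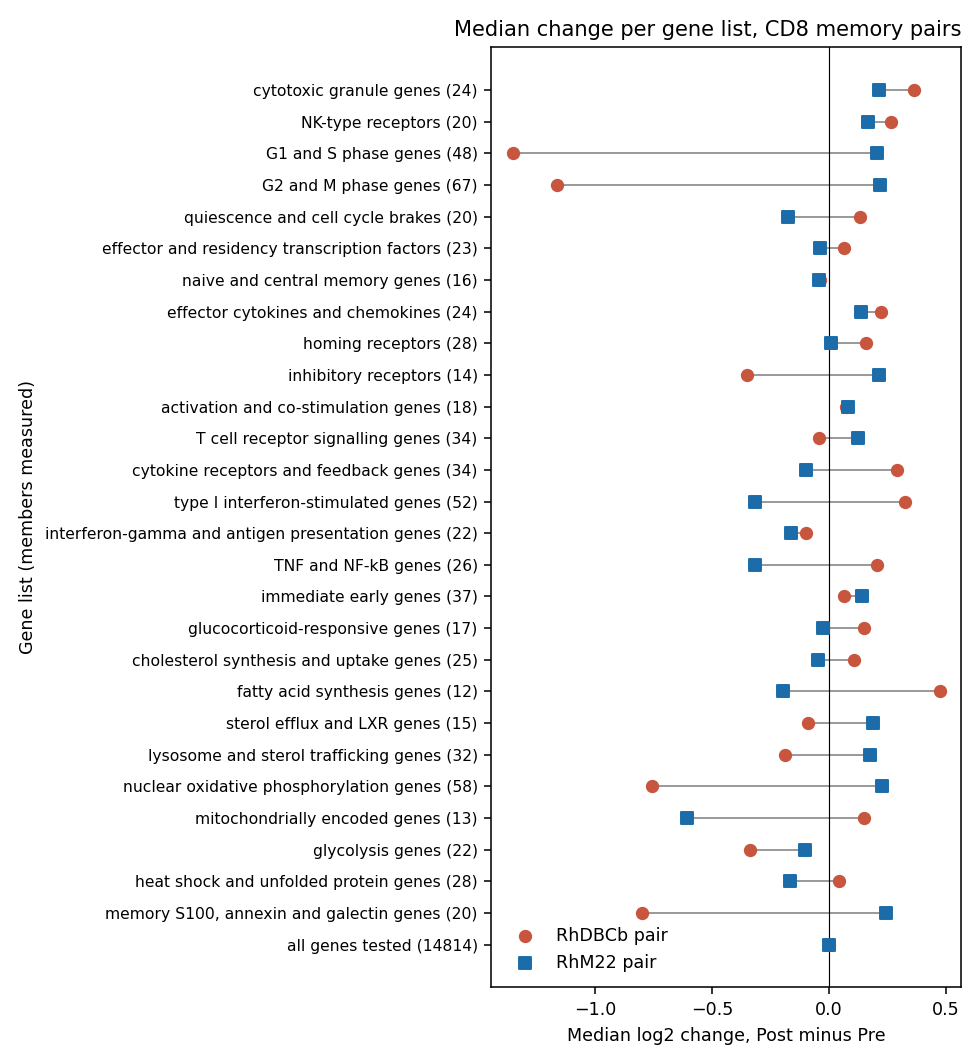
Median log2 change of each gene list in the RhDBCb pair (circles) and the RhM22 pair (squares), with the number of members measured in parentheses and a line joining the 2 medians. Cytotoxic granule genes (0.36 and 0.21), natural killer-type receptors and effector cytokines lie right of 0 in both pairs, while the cell cycle lists span from -1.35 and -1.16 to 0.20 and 0.22.

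The genes with the largest opposite changes were taken in each direction. CENPM, H1-3, H4C3, PLK1 and SPAG5, genes of centromeres, histones and the spindle, were lower in RhDBCb and higher in RhM22, and CENPM was at 58.1 and 5.89 CPM, then 2.19 and 5.16 CPM. B4GALT1, EMP1, ITGAV, SUPT6H and XAF1 were higher in RhDBCb and lower in RhM22. B4GALT1, a galactosyltransferase of the Golgi, was at 52.3 and 196 CPM, then 297 and 124 CPM, and EMP1, a membrane protein gene, at 2.19 and 24.0 CPM, then 32.8 and 30.7 CPM. For CENPM and EMP1 the before library of RhDBCb was the one far from the other 3. For B4GALT1, SUPT6H and XAF1 the before library of RhDBCb was the lowest and that of RhM22 the highest. ITGAV was also highest in the before library of RhM22.

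The change in CD8 memory cells was also compared with the mean change in CD4 naive and CD4 memory cells in the same edgeR fit. This contrast called 0 of 14814 genes (0%), with 169 at an unadjusted p under 0.05 (1.14%). DESeq2 called 0 with 211 at that level and a smallest adjusted p of 0.0587. Among the genes described above other than the marker CD4, SLC22A17, GZMB and CSF1 were relatively higher in CD8 memory cells, and AHR, IFI30, CD38 and PDCD1 relatively lower, each at an unadjusted p under 0.05 only. IFI30 differed by -1.30 (SE 0.55, unadjusted p = 0.038 in edgeR). Of the CD8 memory pairs, PDCD1 was lower only in that of RhDBCb. In RhM22 its CD8 memory change was 0.21, beside 0.03 in CD4 naive and 0.02 in CD4 memory cells.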

How the data were processed

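Polyadenylated RNA was purified with a column kit and made into libraries by SMART-Seq v4, per the labels' protocols. That kit leaves the strand unmarked. The authors deposited expected counts per gene, estimated with RSEM 1.3.3, and FPKM values, both with 1 column per library. The submitters' processing notes also name cutadapt 1.18, STAR 2.7.6a and the builds Mmul_10 and rheMac10. The scale factor behind the FPKM values the authors deposited is not given in the sources used here.

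Counts were rounded and fitted in edgeR 4.0.16 (R 4.3.3) with TMM scaling, a filterByExpr minimum count of 10, and a model with 1 term per combination of subset and time and 1 for the animal, over all 15 libraries, which share the estimate of the spread. Calls were made at an adjusted p of 0.05. DESeq2 1.42.0 was an alternative. Libraries of an animal are paired because the labels name it. The animals' deviations before and after correlated at 0.316 across genes. Each animal gave 1 library per time, so p-values rest on 2 pairs. Pair changes used TMM-scaled CPM with a pseudocount of 0.5 and, where stated, a mean of at least 5 CPM.

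The named genes are up to 12 per direction by their smaller pair change, up to 3 per direction of each list by p, a panel, and 5 per direction with the most opposite changes. Further list members were named after their values were seen. The comparison, the 37 lists and the panel were chosen with earlier results of these data known. The fit was tested on simulated counts. Some genes of these lists are not reported here. Genome coordinates were not used here. Genes without a symbol took 3.40% to 8.29% of counts.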

Additional observations from a re-analysis of the deposited data

How the results depend on the processing

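Every alternative fit called 0 genes, for the change in CD8 memory cells and for its difference from the CD4 change. Without the replicate block (the animal term), 0 genes were called and 85 lay at an unadjusted p under 0.05, against 216 with it. That number was 100 to 1108 when each CD8 memory library was left out in turn, 368 with an animal-by-time term, and 128 and 192 in fits on the 4 CD8 memory libraries and on the 8 memory libraries. A lone library left at a time is assumed to vary like the other groups.

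The counts of genes at least 2-fold higher in both pairs (4), lower in both (3) and opposite (58) were 2, 0 and 26 with a pseudocount of 2 CPM, 0, 0 and 12 on deposited FPKM (2177 genes), 40, 26 and 597 at 1.5-fold, and 11 and 6 higher and lower at a mean of at least 1 CPM. The share of genes moving the same way stayed between 33.1% and 36.3%. The granule gene median in RhDBCb was 0.23 on FPKM. Of 363 recomputed fold changes of 33 genes, 3 had the opposite sign, all without the before library of RhDBCb. Leaving out single libraries, MKI67 ran from -2.78 to 0.11, MCM2 from -2.46 to 0.28 and S100A4 from -2.10 to 0.18.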
